A study of Mus musculus with 28 samples.

Results

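The 7 arrays of Rbm5 knockout (KO) mice after sham treatment, out of 28 arrays in the series, were put in order by a marker score, the mean of the log2 signals of Serpina3n and Gfap on each array, using the row with the highest mean signal for each gene. The comparison group was the 7 arrays of wild-type (WT) mice after sham treatment. Total RNA of mouse cortex was hybridised to MTA 1.0 arrays, which hold probe sets for coding and non-coding transcripts. The mice were 12 to 15 weeks old, and each of the 4 groups held 7 animals of mixed sex: KO sham (4 males and 3 females), WT sham (3 males and 4 females), KO with controlled cortical impact (CCI) and WT with CCI. Sham mice were anaesthetised and recovered without a craniotomy, whereas CCI mice received a craniotomy over the left parietal cortex and a mechanical impact. Brains were perfused with cold saline and collected after 48 h. The labels give the genotype as KO of RBM5 only, and do not say how the allele was made or whether the groups were littermates.

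Astrocytes respond to injury, infection and disturbed tissue with a graded change of state called reactivity, in which the intermediate filament proteins of the cytoskeleton, Gfap among them, and secreted acute-phase proteins such as the protease inhibitor Serpina3n are raised. Serpina3n is low in resting cortex and is a widely used marker of reactive astrocytes, while Gfap is present at a moderate level in resting cortex. Signalling through the transcription factor STAT3 is a known route to both. Rbm5 is an RNA-binding protein that takes part in splicing and is known as a regulator of apoptosis genes.

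The 2 genes that set the order are shown by the 300 bases around their starts, from 250 bases before to 50 after, because their signals moved together over the arrays. The sequences are RefSeq's for GRCm38.p6, read on the gene's strand. Serpina3n lies on the plus strand (chr12:104406458-104406757) and Gfap on the minus strand (chr11:102897151-102897450). Capitals mark the motif TTCNNNGAA, the palindrome that STAT factors are known to bind, which is its own reverse complement and was therefore searched once.
Serpina3n: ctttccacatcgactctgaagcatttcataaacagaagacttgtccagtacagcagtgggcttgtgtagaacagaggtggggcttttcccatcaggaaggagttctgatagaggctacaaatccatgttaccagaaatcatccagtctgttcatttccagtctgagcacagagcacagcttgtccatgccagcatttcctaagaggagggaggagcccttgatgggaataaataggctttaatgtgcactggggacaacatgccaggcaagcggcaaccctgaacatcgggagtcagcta
Gfap: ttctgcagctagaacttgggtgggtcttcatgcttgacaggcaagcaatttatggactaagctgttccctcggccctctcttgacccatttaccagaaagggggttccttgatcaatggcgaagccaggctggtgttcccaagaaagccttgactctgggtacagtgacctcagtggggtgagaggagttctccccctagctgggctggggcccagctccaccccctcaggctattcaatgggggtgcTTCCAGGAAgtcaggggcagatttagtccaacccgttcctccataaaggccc
The Gfap window held 1 match, TTCCAGGAA, which begins at base 249 of the window and spans the gene's start. The Serpina3n window held none. Of 32851 mouse promoter windows of this length, 8.3% held the motif. Among 4 further genes described below for which a window was at hand, Socs3 held 1 match, and Vim, Lcn2 and Fabp7 held none. A match describes letters and does not show binding.

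Serpina3n and Gfap varied widely among the KO sham arrays and little among the WT sham arrays. In rising order of the score, the KO sham arrays were those numbered 33, 32, 10, 11, 12, 9 and 31 in their titles, with scores of 9.51, 10.13, 10.65, 11.05, 11.19, 11.64 and 12.78 log2. The WT sham arrays, numbered 2, 3, 27, 25, 26, 1 and 4, had scores of 9.29, 9.34, 9.39, 9.56, 9.56, 9.78 and 10.15 log2. The lowest 2 KO sham arrays lay within the WT sham range, and the other 5 lay above the highest WT sham array. The largest gap between neighbouring KO sham arrays, 1.14 log2, was the one below the highest.

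Serpina3n signal was 8.16, 8.75, 9.09, 9.39, 9.71, 10.31 and 11.69 log2 over the KO sham arrays in that order, against 7.81, 7.91, 7.86, 8.11, 8.17, 8.39 and 8.74 log2 over the WT sham arrays in theirs. Its range was 3.53 log2 (11.6-fold) in KO sham and 0.93 log2 (1.91-fold) in WT sham. Gfap signal was 10.86, 11.51, 12.22, 12.72, 12.67, 12.96 and 13.86 log2 in KO sham, against 10.77, 10.77, 10.92, 11.01, 10.95, 11.16 and 11.55 log2 in WT sham. Its range was 3.001 log2 (8.004-fold) in KO sham and 0.79 log2 (1.72-fold) in WT sham. Both genes put the arrays in nearly the same order. Against the score, Gfap exchanged KO arrays 11 and 12, and in WT sham each gene exchanged one pair of neighbours. Serpina3n averaged 9.58 ± 1.15 log2 in KO sham and 8.14 ± 0.335 log2 in WT sham, and Gfap averaged 12.40 ± 0.984 log2 in KO sham and 11.02 ± 0.273 log2 in WT sham (SD, n = 7 each). These values chose the arrays' order and the comparison, so they are given without a test. In bulk cortex, more astrocytes and more RNA per astrocyte cannot be told apart.

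**Figure D1:**
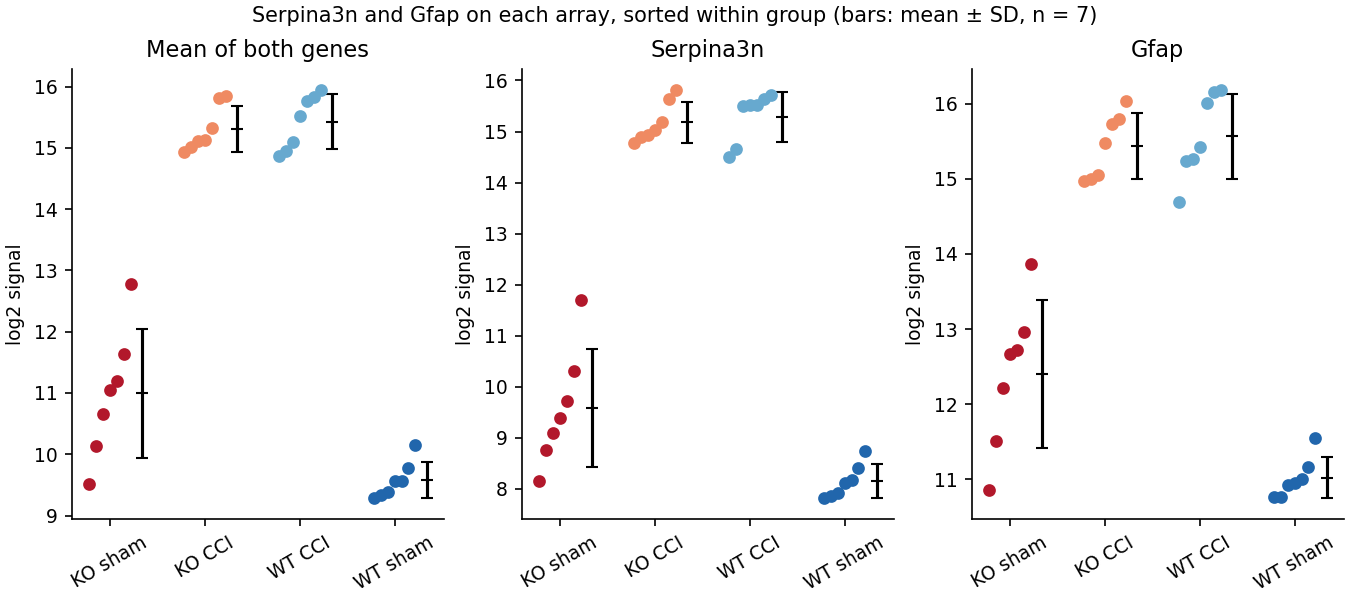
Log2 signal of the marker score (left), Serpina3n (middle) and Gfap (right) on each array, sorted within the 4 groups, with bars for the mean ± SD of 7 arrays. The KO sham scores run from 9.51 to 12.78, those of WT sham from 9.29 to 10.15, and all CCI arrays lie at 14.87 or above.

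Every KO sham array stayed below the CCI arrays. The score averaged 15.31 ± 0.373 log2 in KO CCI and 15.43 ± 0.447 log2 in WT CCI (SD, n = 7 each), with the lowest array at 14.93 in KO CCI and 14.87 in WT CCI. KO sham array 31 lay 54.7% of the way from the WT sham mean to the WT CCI mean on the log2 scale. Injury raised Serpina3n by 7.15 ± 0.21 log2 and Gfap by 4.55 ± 0.22 log2 in WT cortex (estimate ± SE, 7 CCI arrays against 7 sham arrays), so the range over KO sham arrays equalled 49.4% of the injury change for Serpina3n and 66.0% for Gfap. In WT sham these shares were 13.1% for Serpina3n and 17.3% for Gfap.

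The SD of the score was 1.06 log2 in KO sham and 0.301 log2 in WT sham, a ratio of 3.51 with a jackknife SE of 2.38 over the arrays. The titles number the arrays in 2 stretches, 1 to 24 and 25 to 42, which the labels do not call batches, and the ratio differed between them. Among numbers 1 to 24 the SD was 0.405 log2 in KO sham and 0.405 log2 in WT sham (n = 4 each), a ratio of 1.00, with means of 11.13 in KO sham and 9.64 in WT sham. There all 4 KO arrays (10.65 to 11.64) lay above all 4 WT arrays (9.29 to 10.15). Among numbers 25 to 42 the SD was 1.73 log2 in KO sham and 0.101 log2 in WT sham (n = 3 each), a ratio of 17.2, and the 3 KO arrays were the highest and the lowest 2 of their group. The larger overall spread in KO sham thus rested on the 3 arrays numbered 31, 32 and 33. Without array 31 the ratio was 2.57, and without WT array 4 it was 5.77. By sex, the KO sham scores ran from 10.13 to 12.78 in the 4 males and from 9.51 to 11.19 in the 3 females.

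The remaining Rbm5 signal varied little among the KO sham arrays, over a range of 0.18 log2. Rbm5 signal was 9.75, 9.84, 9.66, 9.78, 9.82, 9.78 and 9.69 log2 over the KO sham arrays in score order, against 10.70 to 10.82 log2 in WT sham. All KO sham arrays lay below all WT sham arrays, which held for 0.528% of all rows. KO sham was lower by 1.02 ± 0.038 log2 (estimate ± SE, limma adjusted p = 5.6e-16), and rho with the score in KO sham was -0.14. Over all rows, 847 of 65956 (1.28%) differed between KO sham and WT sham at an adjusted p under 0.05, 335 higher (0.508%) and 512 lower (0.776%) in KO sham. Without the marker genes, which set the order, 333 were higher. A probe set need not lie in the deleted part, so a remaining signal does not measure protein.

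Other genes were set against the order by Spearman's rho over the 7 KO sham arrays. A row was counted as following when rho was at least 0.9 or at most -0.9 and its signal spanned at least 0.5 log2. Since the order was chosen from these arrays, these correlations are descriptions without a test. By this threshold 120 of 65956 rows (0.182%) followed the order upward and 52 (0.0788%) downward, both marker genes included. The same threshold applied to the WT sham arrays and their own score gave 48 rows upward (0.0728%) and 70 downward (0.106%). In all, 172 rows followed in KO sham (0.261%), against 187 in KO CCI (0.284%), 193 in WT CCI (0.293%) and 118 in WT sham (0.179%), each with its own score. The total in KO sham lay within the range of the other groups. At this setting its upward count was the highest of the 4, against 78 in KO CCI (0.118%) and 95 in WT CCI (0.144%). Its downward count lay below the 109 in KO CCI (0.165%) and 98 in WT CCI (0.149%). After each array was centred on its median, the upward count was 79 in KO sham and 49 in WT sham. The CCI counts are given at the main setting only, so the ranking of the 4 groups was not checked under others. Downward, the order of KO sham against WT sham depended on the setting. The counts were 69 in KO sham and 62 in WT sham after quantile normalization, and 73 in KO sham and 63 in WT sham after centring. Among brighter rows they were 25 in KO sham and 22 in WT sham.

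The steepest follower besides the markers was an unnamed bright row, at a mean of 10.05 log2, with a slope of 0.62 and a change of -1.58 log2 with injury in WT (adjusted p = 0.016). Of the 118 besides the markers, 35 had a single symbol, beside 31263 of 65954 among all rows, and 70 (59.3%) had a mean below 5.79 log2, the lowest array median, beside 49.7% of all rows. In WT cortex 13 of the 118 (11%) rose with injury, beside 8.23% of all rows, and 9 (7.63%) fell, beside 7.21% of all rows. After predicted models, olfactory, vomeronasal and small RNA genes were set aside, 13 named genes remained upward and 5 downward. Of the 13, 7 rose with injury in WT (53.8%), namely A2m, C4b, C4a, Fcgr1, Tfpi2, Glycam1 and Krt9. Among all rows that the same name filter kept, without the markers, 2671 of 18155 rose.

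The steepest named followers were secreted proteins of the acute-phase and complement systems. A2m, alpha-2-macroglobulin, a broad protease inhibitor, had the same order as the score. Its signal was 5.52, 5.72, 5.97, 5.99, 6.07, 6.22 and 6.76 log2 in KO sham, against 5.71, 5.91, 5.58, 5.87, 5.86, 5.95 and 6.00 log2 in WT sham, each in score order. Only KO arrays 12, 9 and 31 lay above the WT sham range. A2m changed by 0.37 log2 per log2 of score in KO sham (rho 1.00, r 0.99, and r 0.97 without the 2 arrays farthest from the median score). Injury raised A2m by 3.80 ± 0.31 log2 in WT (adjusted p = 8.8e-07).

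C4b, the complement component whose cleavage starts the classical and lectin cascades, had signals of 6.76, 6.81, 7.31, 7.42, 7.56, 7.43 and 8.02 log2 in KO sham, against 6.85, 6.88, 6.88, 6.78, 6.67, 7.01 and 7.20 log2 in WT sham. The upper 5 KO arrays lay above every WT sham array, as for the score. The slope was 0.39 log2 per log2 of score (rho 0.96, r 0.96, and r 0.85 without the 2 farthest arrays), and the SD was 2.59 times that of WT sham. C4b rose by 3.01 ± 0.12 log2 with injury in WT (adjusted p = 3.8e-09). Its near-identical neighbour C4a followed at a smaller slope of 0.15 (rho 0.96) and rose by 1.50 ± 0.073 log2 with injury. Probe sets of such paralogs can share targets, so the signals of C4a and C4b are not separate evidence.

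Fcgr1, the high-affinity Fc receptor of microglia and macrophages, was the remaining named follower that injury raised by over 4-fold in WT (2.11 ± 0.21 log2, adjusted p = 5.1e-06). Its signals were 6.49, 6.56, 6.62, 6.87, 6.78, 7.03 and 6.97 log2 in KO sham, against 6.51, 6.97, 6.45, 6.55, 6.73, 6.68 and 6.66 log2 in WT sham. The ranges overlapped, 0.55 log2 in KO sham and 0.52 log2 in WT sham, so its spread was alike in both genotypes. The other 9 named upward followers, Tfpi2, Lep, Usp17ld, Glycam1, Mbd3l2, Gpha2, Adam29, Esp8 and Krt9, had slopes of 0.09 to 0.18 and means of 3.54 to 6.43 log2. Among them Tfpi2, an inhibitor of serine proteases, had the largest ratio of SDs (3.72), at a mean of 4.63 log2 in KO sham, below every array median.

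Downward, the 5 named followers were Nat1, Hmgxb3, Smok2a, Cyp46a1 and Acaa2. Cyp46a1, the neuronal enzyme that turns cholesterol into 24-hydroxycholesterol, had signals of 11.56, 11.43, 11.42, 11.34, 11.22, 11.01 and 11.21 log2 in KO sham, against 11.78, 11.44, 11.58, 11.64, 11.52, 11.36 and 11.35 log2 in WT sham. It fell by 0.26 ± 0.070 log2 with injury in WT (adjusted p = 0.020) and was the only one of the 5 that passed that test. Nat1, an arylamine acetyltransferase, had the most negative slope of the 5, -0.22, over signals between 5.55 and 6.21 log2. Its injury change in WT was -0.03 ± 0.11 log2 (adjusted p = 0.92). The steepest downward follower of all was an unnamed row at a mean of 9.44 log2, with a slope of -0.49. Acaa2, an enzyme of mitochondrial fatty acid oxidation, had a slope of -0.13.

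None of the 18 named followers besides the markers passed the test against the score of the WT sham arrays. Their rho in WT sham had exact two-sided permutation p-values of at least 0.066, and adjusted values of at least 0.960 over the 18 (n = 7). The smallest belonged to Cyp46a1, with rho -0.75 and r -0.70 (exact p = 0.076). Without the 2 arrays farthest from the median score its r was -0.38. For A2m rho was 0.68 (exact p = 0.110) and r 0.69 (exact p = 0.083), and r was 0.52 without the 2 arrays farthest from the median score. For C4b rho was 0.39 (exact p = 0.396) and r 0.72 (exact p = 0.072), and r was 0.25 without the 2 farthest. The Pearson p-values adjusted over the 18 were at least 0.495. The slopes in WT sham, 0.33 for A2m and 0.40 for C4b, were close to the 0.37 and 0.39 in KO sham, over a score range of 0.86 log2 in WT sham and 3.27 log2 in KO sham. The difference in correlation between the genotypes was not tested.

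**Figure D2:**
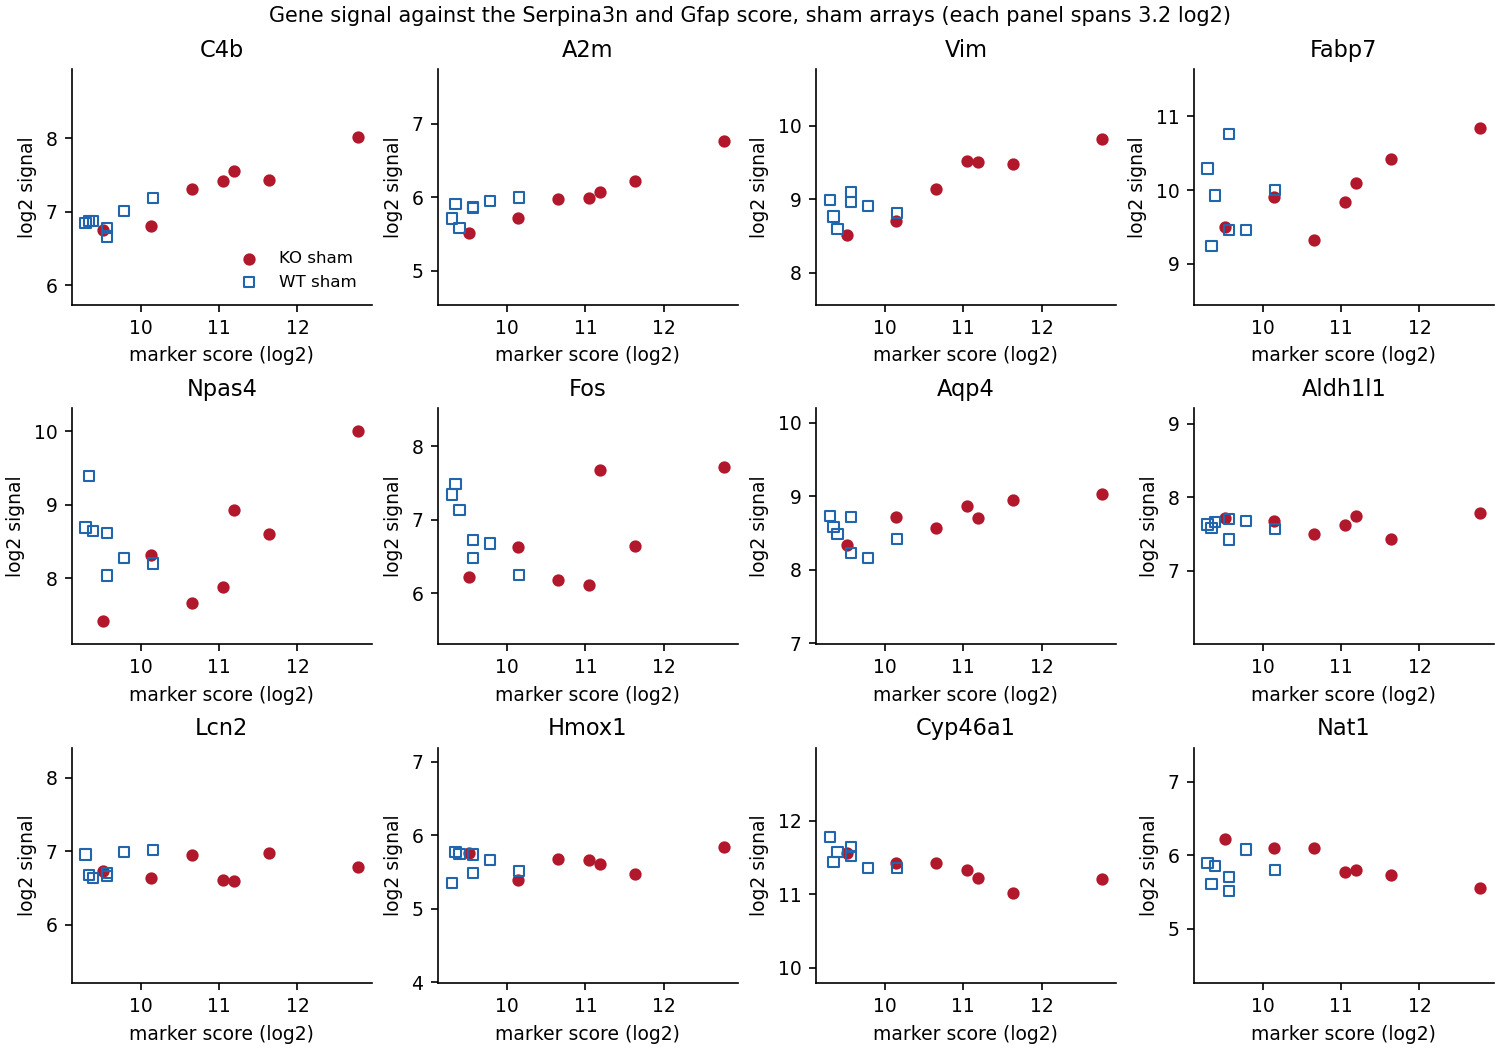
Log2 signal of 12 genes against the marker score on the 7 KO sham arrays (filled circles) and the 7 WT sham arrays (open squares), each panel spanning 3.2 log2 so that slopes can be compared. C4b and A2m run upward along the KO sham scores, Vim levels off above the middle arrays, Lcn2 and Hmox1 stay level, and Fabp7 spans as much in WT sham. Npas4 spans 2.59 log2 in KO sham and 1.35 in WT sham, and Fos 1.61 in KO sham and 1.24 in WT sham.

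Vim, the intermediate filament protein that assembles with Gfap in reactive astrocytes, missed the threshold. Its signals were 8.52, 8.70, 9.14, 9.52, 9.51, 9.48 and 9.82 log2 in KO sham, against 8.99, 8.77, 8.59, 8.96, 9.10, 8.91 and 8.82 log2 in WT sham. The upper 5 KO arrays lay above every WT sham array and the lower 2 below or among them. The Spearman correlation was 0.86 (r 0.93) because arrays 11, 12 and 9 were nearly equal, and the slope of 0.42 exceeded that of any named follower besides the markers. The SD was 2.86 times that in WT sham, a ratio reached by 1.9% of all rows, and injury raised Vim by 4.30 ± 0.16 log2 in WT.

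Several named genes lay just outside the threshold, in both directions. The Spearman correlation was 0.89 for Ptgs2, the inducible cyclooxygenase, for Ctsc, a lysosomal protease of microglia, and for Mki67, a protein of dividing cells, with slopes of 0.28 for Ptgs2, 0.21 for Ctsc and 0.24 for Mki67. Downward, Rgs16, a regulator of G protein signalling, also missed it (rho -0.89). Just inside on the upward side, at 0.93, were Fcgr1, Glycam1, Mbd3l2, Usp17ld, Esp8 and Krt9. Mki67 signal was 5.35, 5.49, 5.54, 5.65, 5.54, 5.90 and 6.14 log2 in KO sham, against 5.88, 5.44, 5.46, 5.34, 5.59, 5.31 and 5.53 log2 in WT sham, so KO arrays 9 and 31 alone lay above the WT sham range. Ly86, a partner of a Toll-like receptor homologue in microglia and macrophages, had 9.32, 9.83, 9.02, 9.99, 9.86, 9.91 and 10.37 log2 in KO sham, against 9.25, 9.25, 9.08, 9.35, 9.29, 9.53 and 9.39 log2 in WT sham. KO arrays 32, 11, 12, 9 and 31 exceeded the WT sham range, but they were not the upper 5 of the score, since array 10 was the lowest of all 14.

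The rows that respond to CCI in WT, which the ordering did not use, give a wider view. Of all rows, 0.763% rose 2-fold or more. After the markers were set aside, 91 rows rose 4-fold or more with injury, and 4 of them (4.4%) followed the KO sham order upward, beside 0.182% of all rows. These were A2m, C4b, Fcgr1 and the predicted gene Gm7665. None of the 91 followed the WT sham order either way, beside 0.179% of all rows. At that share, a set of this size without a follower says nothing about its rows. Among the 91 the slope in KO sham was positive for 74.7%, with a median of 0.067, beside 52.7% of all rows and a median of 0.004. Among the 501 rows raised 2-fold or more, 6 (1.2%) followed, 61.1% had a positive slope and the median slope was 0.025. Most injury-raised rows thus had slopes near 0 over the KO sham arrays.

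**Figure D3:**
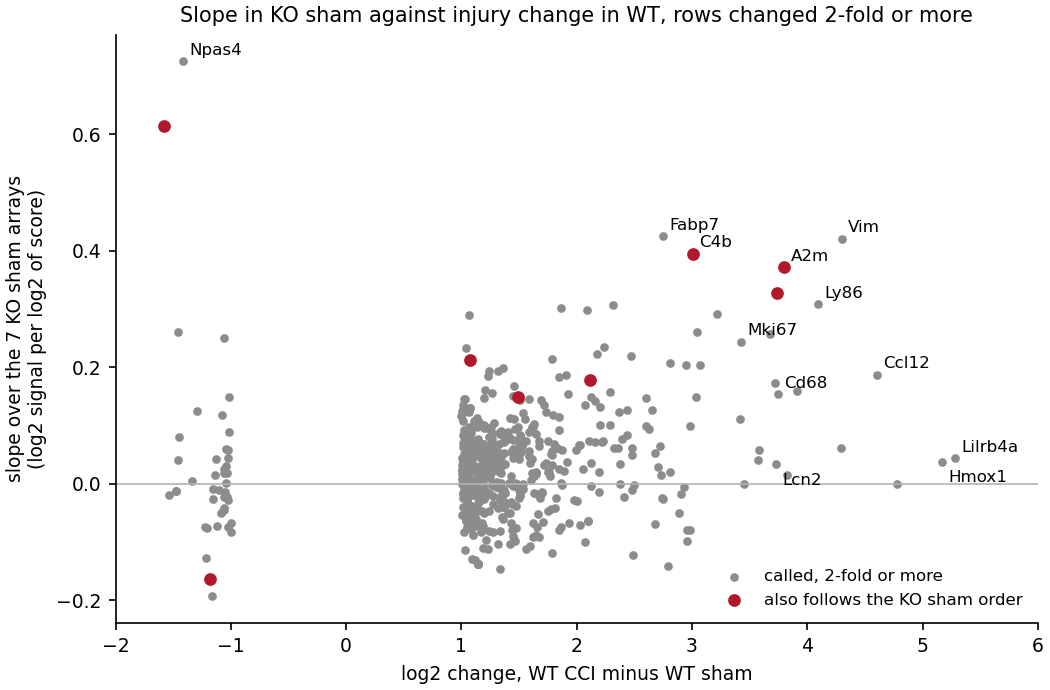
Slope of log2 signal on the marker score over the 7 KO sham arrays against the log2 change with injury in WT (WT CCI minus WT sham), for rows called at an adjusted p under 0.05 and changed 2-fold or more, without Serpina3n and Gfap. Red points also follow the KO sham order. C4b, A2m and Vim have slopes near 0.4, while Hmox1, Lilrb4a and Lcn2 lie close to 0 with injury changes of 3.73 to 5.28 log2.

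Some of the strongest injury genes did not move along the KO sham order. Hmox1, haem oxygenase, rose by 5.17 ± 0.21 log2 with injury, but its KO sham signals were 5.76, 5.39, 5.68, 5.66, 5.60, 5.47 and 5.83 log2 (rho 0.11). Lcn2, lipocalin, a secreted iron-carrier binder raised in reactive astrocytes, rose by 3.73 ± 0.21 log2 with injury, but had 6.73, 6.63, 6.95, 6.61, 6.60, 6.97 and 6.78 log2 in KO sham (rho 0.21). Its range was 0.37 log2 in KO sham and 0.38 log2 in WT sham. Lilrb4a, a myeloid receptor that inhibits activation, rose by 5.28 ± 0.17 log2 with injury and spanned 0.32 log2 in KO sham and 0.35 log2 in WT sham. As a share of the injury change, the range in KO sham was 6.08% for Lilrb4a, 8.58% for Hmox1 and 10.03% for Lcn2, against 32.8% for A2m and 41.9% for C4b. Hmox1 averaged 5.63 log2 in KO sham and 5.61 log2 in WT sham, and Lilrb4a 5.71 log2 in KO sham and 5.66 log2 in WT sham. Both lay below the lowest array median, where little signal over background can hold a range small. Lcn2 lay above it, at 6.76 log2 in KO sham and 6.81 log2 in WT sham.

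**Figure D4:**
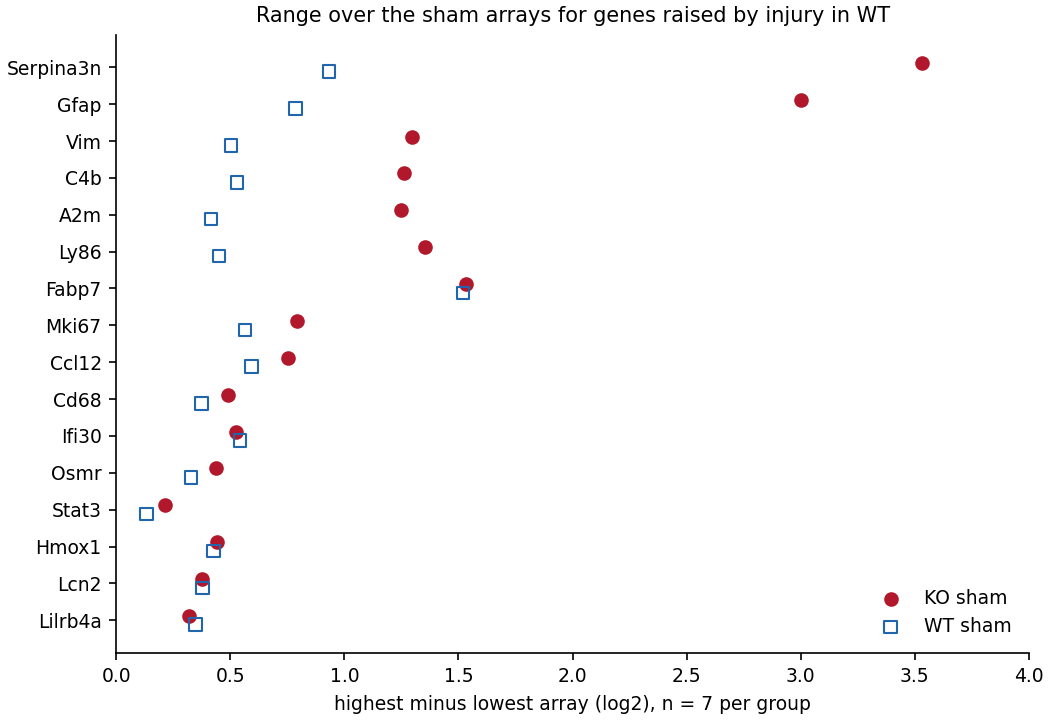
Range over the 7 KO sham arrays (filled circles) and over the 7 WT sham arrays (open squares), as highest minus lowest log2 signal, for 16 genes that rose with injury in WT. Serpina3n and Gfap span 3.53 and 3.001 log2 in KO sham, Vim, C4b, A2m and Ly86 span 1.25 to 1.35, and Hmox1, Lcn2 and Lilrb4a span 0.32 to 0.44 in KO sham and about as much in WT sham.

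Stat3 spanned 0.22 log2 in KO sham and 0.13 log2 in WT sham (rho 0.41 in KO sham), while injury raised it by 1.50 ± 0.076 log2 in WT. Osmr, the oncostatin M receptor, had rho 0.61 and a slope of 0.06 in KO sham, where it spanned 0.44 log2, and rho 0.82 in WT sham. Socs3, a feedback inhibitor of STAT3, had rho 0.68 and a slope of 0.08 at a mean of 4.66 log2, below every array median. Of the 23 measured genes of JAK, STAT and SOCS signalling, none followed the order, beside 0.261% of all rows, and the median rho was 0.29. At that share a list of this size without a follower says nothing about its genes.

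Of 35 measured reactive astrocyte genes besides the markers, 33 rose with injury in WT, beside 8.23% of all rows, and none fell. Of the 35, 2 followed the KO sham order upward, C4b and A2m, beside 0.182% of all rows. The median rho was 0.41 and the median slope 0.05, and 16 of the 35 had a mean below the lowest array median. Among the brightest members, Cp, the copper carrier ceruloplasmin, had an SD 3.25 times that in WT sham but a rho of 0.39, and Srgn, a granule proteoglycan, had a rho of -0.04. The list's mean signal, which includes C4b, A2m and Vim, ran from 5.93 to 6.15 log2 in KO sham and from 5.98 to 6.02 log2 in WT sham. Its rho with the score was 0.96 in KO sham and 0.04 in WT sham. Because these 3 genes enter the mean, its rho is not separate evidence from theirs. Genes of resting astrocytes gave no followers among 16, which is near the overall share, with a median rho of 0.18. Aldh1l1, a folate enzyme used as a general astrocyte marker, had 7.72, 7.68, 7.50, 7.62, 7.74, 7.43 and 7.79 log2 in KO sham, against 7.43 to 7.70 log2 in WT sham (rho 0.14 in KO sham). Slc1a2, the main glutamate transporter, spanned 0.25 log2 in KO sham and 0.10 log2 in WT sham (rho 0.50 in KO sham). Aqp4, the water channel of astrocyte end-feet, had 8.34, 8.72, 8.57, 8.86, 8.70, 8.95 and 9.02 log2 in KO sham, against 8.73, 8.57, 8.48, 8.71, 8.23, 8.16 and 8.42 log2 in WT sham. Its rho was 0.82 in KO sham and -0.79 in WT sham, and its SD was 1.07 times that in WT sham. Fabp7, a fatty acid carrier of radial glia and astrocytes, had a slope of 0.42 in KO sham, but its range was 1.53 log2 in KO sham and 1.52 log2 in WT sham, where rho was -0.07.

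Among the other cell types the sample could hold, there were no followers among 12 homeostatic and 20 phagocytic microglial genes. The median rho was 0.43 for the homeostatic and 0.50 for the phagocytic genes, and 18 of the 20 phagocytic genes had a positive rho. Among the homeostatic genes 10 of 12 had a positive rho, and their list mean (rho 0.71) spanned 0.25 log2 in KO sham and 0.15 log2 in WT sham. The 2 with a negative rho were Tmem119 (-0.75) and P2ry12 (-0.21). Of 13 complement genes 1 followed, C4b. The list mean, which includes C4b, spanned 0.35 log2 in KO sham and 0.11 log2 in WT sham. Its rho with the score was 0.96 in KO sham and 0.29 in WT sham. C1qb, a chain of the classical pathway's first component, had rho 0.82 in KO sham and 0.86 in WT sham. Of 17 cell cycle genes 16 had a positive rho, with a median of 0.50, and none followed. The median rho was 0.54 over 9 oligodendrocyte precursor genes and 0.48 over 16 endothelial genes. Since 0.182% of all rows followed upward, a list of this size without a follower is near the overall share and says nothing about its genes. The list mean of 11 NF-kB targets had a rho of 0.86 in KO sham and -0.57 in WT sham.

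The arrays also differed in genes of neighbouring regions and of oligodendrocytes. The striatal list mean was highest in KO arrays 32 (7.83 log2) and 9 (7.73 log2), and ran from 6.94 to 7.83 log2 in KO sham and from 6.93 to 7.37 log2 in WT sham. The Spearman correlation of that mean with the score was 0.14 in KO sham. The oligodendrocyte list mean ran from 10.68 to 11.32 log2 in KO sham and from 10.46 to 10.98 log2 in WT sham, with rho -0.25 in KO sham. The choroid plexus list mean was 5.33 to 5.76 log2 in KO sham and 5.40 to 7.28 log2 in WT sham, where array 25 stood alone at the top. The part of tissue composition in the spread of the score was not tested.

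**Figure D5:**
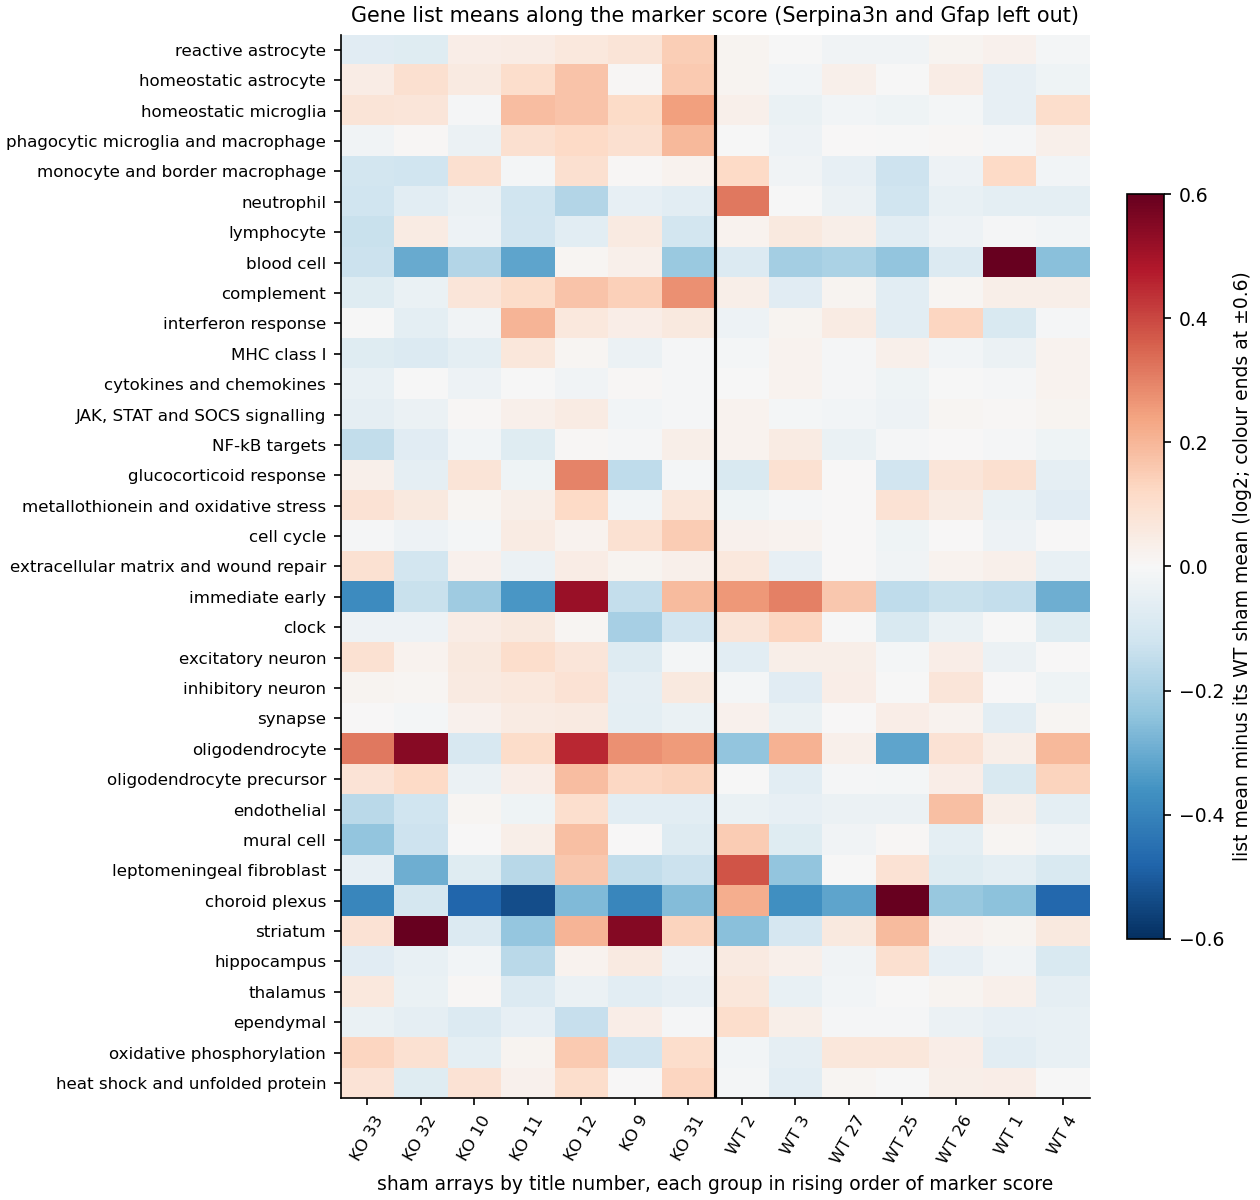
Mean log2 signal of 35 gene lists on each sham array, minus the list's WT sham mean, with the 7 KO sham arrays left of the 7 WT sham arrays and each group in rising order of the marker score. Serpina3n and Gfap are left out of every list. The reactive astrocyte and complement lists deepen along the KO arrays, whereas the striatum, oligodendrocyte and choroid plexus lists vary without following the order.

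The activity genes Npas4 and Fos had rho of opposite sign with the score in the 2 groups. Npas4, a transcription factor induced by neuronal firing, had 7.41, 8.32, 7.66, 7.88, 8.93, 8.60 and 10.01 log2 in KO sham, against 8.69, 9.39, 8.64, 8.61, 8.04, 8.27 and 8.20 log2 in WT sham. The Spearman correlation was 0.86 in KO sham and -0.86 in WT sham. Fos had 6.22, 6.63, 6.17, 6.11, 7.68, 6.64 and 7.72 log2 in KO sham, against 7.34, 7.48, 7.13, 6.72, 6.47, 6.67 and 6.24 log2 in WT sham, with rho 0.64 in KO sham and -0.93 in WT sham. Over 16 immediate early genes the median rho was 0.46 in KO sham and -0.66 in WT sham. None of the 16 met the threshold in KO sham, which is near the share of all rows. These genes were singled out after their values were seen, and the difference between the groups was not tested.

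Over all rows, a range of at least 1 log2 was reached by 1.98% in KO sham and 1.69% in WT sham, and by both markers, A2m, C4b, Vim, Ly86 and Fabp7 in KO sham among the genes shown by their ranges. Spread was also compared as the ratio of SDs. In 8.46% of rows the SD was at least 2 times larger in KO sham, and in 6.4% at least 2 times larger in WT sham. Ratios were 2.75 for A2m, 2.59 for C4b, 2.86 for Vim, 3.21 for Ly86 and 3.67 for C4a, and at least 3 in 1.56% of all rows. Fcgr1 (1.22), Cd68 (1.40), Lcn2 (0.92) and Hmox1 (0.96) were spread about alike. A Levene-type limma test across rows called 0 of 65956 rows. At an unadjusted p under 0.05, 2996 rows were more spread and 2255 less spread in KO sham. With deviations taken from the group median instead of the mean, these counts were 850 and 660. On simulated data the test with deviations from the mean recovered none of 200 rows given a 4 times larger SD, so its lack of calls carries no information. The 5 named genes with its smallest p-values, Mrpl48-ps, Tipin, Eef1akmt1, Tshr and Defb6, had rho between -0.36 and 0.79 with the score, and their adjusted p-values did not pass.

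The mean difference between genotypes was not called for any named follower besides the markers. The markers were in the same fit, but their result is not read as a test because they set the order. A2m differed by 0.24 ± 0.28 log2 between KO sham and WT sham (limma adjusted p = 0.835), C4b by 0.43 ± 0.17 log2 (adjusted p = 0.291) and Vim by 0.36 ± 0.20 log2 (adjusted p = 0.55), all with n = 7 per group. C4b was above the whole WT sham range in 5 of 7 KO sham arrays, as was Vim, and A2m in 3 of 7.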

How the data were processed

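Log2 signals of 28 arrays were used as the authors deposited them. Per the labels' protocols, Trizol was used to extract RNA, and 100 ng went into biotinylated cDNA. The software, background correction and normalization behind the deposited log2 values are not given in the sources used here. The table has 72688 rows. After 6732 control rows were left out, 65956 were tested, of which 31265 carried 1 gene symbol by the platform annotation, updated through RefSeq's GRCm38.p6 table. Array medians lay between 5.79 and 5.90 log2. Precision is limited by the number of arrays. Labels describe 7 animals per group.

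Spearman's rho, Pearson's r and slopes on the score were computed per row (Python 3.11.15, scipy 1.17.1). Exact permutation tests over all 5040 pairings were run in WT sham, with Benjamini-Hochberg adjustment over 18 genes. limma 3.58.1 (R 4.3.3) gave the injury change in WT (14 WT arrays and sex), the genotype difference after sham (4 group means and sex, 28 arrays) and the test of spread, adjusted by Benjamini-Hochberg over all rows. Adjusted p-values under 0.05 were called. On simulated rows with a log2 change of 0.5, the genotype fit recovered 79% and the injury fit 69.5% of 200 rows.

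The members, the 35 gene lists (486 of 525 genes measured) and the thresholds were chosen with earlier results of these data known. Named genes were the 15 followers of largest and 10 of most negative slope, up to 3 per list, the 8 brightest reactive astrocyte genes, the 5 with the smallest p of the spread test and 9 fixed genes. Genes with accession-like names were also set aside. The 12 largest injury rises, the 10 largest slopes just under the threshold, and Fabp7, Fos and Npas4 were added after values were seen, as was any further list member named with its value. Alternatives covered normalization, sex, single-marker scores, dim rows, the range minimum, Pearson's r and single arrays.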

Additional observations from a re-analysis of the deposited data

Results flagged for a closer look

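Of 174 sets of 7 sham values, those of named genes and list means in each genotype, without the score and its 2 genes, 10 had a highest or lowest array whose gap to its neighbour, as a share of the whole range, exceeded Dixon's critical value. Chance gives about 1 in 20 such sets, so 10 of 174 is near that number. Some of the genes were named for following the KO sham order, so that rate is only a rough guide. In KO sham, 2 genes set array 31, the array with the highest score, apart: it was the lowest for Smok2a (4.06 log2, gap share 0.633) and the highest for Ccl12, a chemokine of myeloid cells (5.37 log2, gap share 0.583). Smok2a was named because it fell with the KO sham order, so its low value on array 31 is not independent of that order. In WT sham, single genes set apart array 2 for Adam29 (highest, gap share 0.615), array 27 for Hmgxb3 (lowest, 0.590) and array 3 for Ifi30, a lysosomal reductase of antigen-presenting cells (lowest at 5.58 log2, 0.930). The WT sham list means set apart array 2 for neutrophil genes (highest at 5.33 log2, 0.728) and mural cell genes (highest, 0.628), array 1 for blood cell genes (highest at 6.86 log2, 0.870), array 26 for endothelial genes (highest, 0.611) and array 25 for choroid plexus genes (highest at 7.28 log2, 0.635).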

How the results depend on the processing

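Upward followers in KO sham numbered 79 after each array was centred on its median, 52 among rows brighter than the median row and 301 with no minimum range, against 120. Downward followers numbered 25 among brighter rows and 154 with no minimum range, against 52. In WT sham, under alternatives chosen after seeing the data, brighter rows gave 29 upward and 22 downward, and no minimum range 149 upward and 215 downward. Leaving out single arrays, where 6 values make a high rho easier to reach, gave 138 to 293 upward and 95 to 161 downward in KO sham, and 86 to 136 upward and 107 to 237 downward in WT sham. The ratio of SDs of the score was 1.00 within title numbers 1 to 24 and 17.2 within 25 to 42, and 2.57 to 5.77 without single arrays. Genotype calls numbered 549 higher in brighter rows, and without single KO sham arrays 178 to 304 higher and 260 to 637 lower. The spread test called 0 to 9 rows more spread and 0 less spread in KO sham without single arrays. Under 8 other settings rho of A2m fell under 0.9 in 1 and of C4b in 3, and in none without single arrays. No called value changed sign, but the order of the downward counts did: they were 69 in KO sham and 62 in WT sham after quantile normalization, 73 in KO sham and 63 in WT sham after centring, and 25 in KO sham and 22 in WT sham among brighter rows, against 52 in KO sham and 70 in WT sham. Of the other comparisons with the main setting for named genes, 1101 kept their side of the threshold, 62 lost it and 5 gained it. No paired analysis was possible because the groups share no replicate numbers in their titles. Probe sets below the array median have little signal over background, which limits the dim followers most.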
